A study of Homo sapiens with 17 samples.

Results

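The genes described here make or handle cholesterol and fatty acids: the mevalonate pathway, the steps from squalene to cholesterol, the SREBP transcription factors with their control proteins, acetyl-CoA supply and fatty acid synthesis, and sterol efflux. They were taken from a list of 36 genes, of which 35 were matched by Ensembl identifier among the 63677 genes of the count files, and ACACA was not matched. Levels were measured by RNA-seq of total RNA in 2 human lymphoma lines of the diffuse large B cell type, Karpas-422 and WSU-DLCL2. The 15 libraries form 5 groups of 3: Karpas-422 untreated or given A-485 for 48 h, WSU-DLCL2 untreated or given A-485 for 48 h, and WSU-DLCL2 clones that carry the label BCL11A knockout (clones 1 to 3). A-485 blocks the catalytic activity of p300 and CBP, which acetylate histones. The series as a whole asks how histone acetylation relates to chromatin folding and to the activity of oncogenes. The labels call the control groups untreated and name no agent for them, while the names of their deposited files give DMSO, the solvent in which such inhibitors are dissolved. The knockout group consists of clones set beside the uncloned line, with no unedited clone analysed here. Except for the clones, the labels do not say that replicates came from separate cultures, so the spread within those groups may be technical only. Each p-value is set against such spread, and in the comparisons of the clones also against differences between clones.

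Cholesterol is built from acetyl-CoA by way of mevalonate, isoprenoid diphosphates and squalene, and fatty acids are built from the same acetyl-CoA by fatty acid synthase. When membrane sterol is low, SCAP carries the SREBP proteins, encoded by SREBF1 and SREBF2, from the endoplasmic reticulum to the Golgi, where they are cut to release transcription factors that switch on both pathways. INSIG1 holds the complex back when sterol is high, and the oxysterol receptors LXR switch on efflux genes such as ABCA1. Proliferating B lymphoma cells use both pathways to build membrane.

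The promoter sequences of 4 genes are shown. SREBF2 holds the sterol element of the list, and SCD carried the largest fall in level in Karpas-422. FADS1 and AACS were called in both cell lines, in WSU-DLCL2 by edgeR's test only without 1 untreated library. The part of these 4 sequences in the levels below was not tested. Each is the 250 bases before the gene's start, 5′ to 3′ on the gene's strand, from RefSeq on GRCh38.p14, at chr22:41832855-41833104 (plus strand) for SREBF2, chr10:100346983-100347232 (plus strand) for SCD, chr11:61817004-61817253 (minus strand) for FADS1 and chr12:125065185-125065434 (plus strand) for AACS. Capitals mark the motifs TCACNCCAC, the core of the sterol regulatory element, CCAAT, the NF-Y box (ATTGG on the other strand), and CACGTG, an E-box.
SREBF2: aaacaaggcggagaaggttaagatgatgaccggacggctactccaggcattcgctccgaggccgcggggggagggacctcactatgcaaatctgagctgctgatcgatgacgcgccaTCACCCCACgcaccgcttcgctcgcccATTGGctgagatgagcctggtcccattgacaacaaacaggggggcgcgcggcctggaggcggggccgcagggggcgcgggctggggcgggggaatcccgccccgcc
SCD: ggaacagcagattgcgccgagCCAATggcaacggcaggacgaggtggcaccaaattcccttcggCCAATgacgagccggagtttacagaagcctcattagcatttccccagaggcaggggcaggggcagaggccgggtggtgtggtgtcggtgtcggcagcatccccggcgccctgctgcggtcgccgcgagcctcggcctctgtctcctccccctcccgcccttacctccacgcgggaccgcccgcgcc
FADS1: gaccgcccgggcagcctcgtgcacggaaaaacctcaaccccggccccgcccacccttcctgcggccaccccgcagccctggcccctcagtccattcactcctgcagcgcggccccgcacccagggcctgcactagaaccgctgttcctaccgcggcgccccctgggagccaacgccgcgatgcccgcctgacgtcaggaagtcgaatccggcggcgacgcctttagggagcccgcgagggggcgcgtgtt
AACS: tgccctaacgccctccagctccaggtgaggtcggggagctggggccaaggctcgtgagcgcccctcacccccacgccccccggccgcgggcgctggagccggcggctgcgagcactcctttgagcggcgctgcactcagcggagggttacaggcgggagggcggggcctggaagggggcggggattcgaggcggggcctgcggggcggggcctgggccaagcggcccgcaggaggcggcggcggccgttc

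Over both strands of windows from 250 bases before to 50 after the start, the sterol element core was found in 1 of the 31 listed genes with a window (3.23%) and in 1.13% of all 35116 RefSeq windows. The 1 gene was SREBF2, whose match begins 133 bases before the start. The NF-Y box was found in 19 of the 31 (61.3%), against 34.6% of all windows. SCD holds this box at 229 and at 186 bases before its start. The E-box was found in 5 of the 31 (16.1%), against 7.26% of all windows, and those 5 were ABCA1, INSIG1, LSS, SC5D and SCAP. FADS1 and AACS hold none of the 3 motifs in this window, which says only that these letters are not there.

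The libraries were of 2 kinds that bear on every level below. The libraries of Karpas-422 and those of A-485-treated WSU-DLCL2 were shallow, with 6689320 to 8897051 reads assigned to genes, and the clones and untreated WSU-DLCL2 were deep, with 21233752 to 37286727. In CPM, a gene's reads scaled to equal library totals, 23 of the 35 genes were higher in every deep library than in any shallow one, and 3 (PMVK, IDI1 and FADS1) were the other way round. Of the 16937 genes tested in at least 1 of the comparisons, 42.1% and 18.6% did so. INSIG1, for example, was at 0.896 to 3.14 CPM in the shallow libraries, against 193 to 257 CPM in the deep ones. DHCR7, the last enzyme of cholesterol synthesis, was at 0.349 to 2.30 CPM against 95.8 to 150 CPM. Because so many genes separated the kinds of library, groups were tested only within a kind. The 7 B cell markers were detected in every group. Hepatocyte, steroid and adipose markers, which would mark tissues that specialise in lipid handling, summed to at most 0.617 CPM.

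In Karpas-422, A-485 was followed by lower levels of the fatty acid synthesis genes SCD and FASN, of the squalene epoxidase gene SQLE and of the efflux gene ABCA1, and by higher levels of SC5D, HSD17B7, ACAT2, AACS and FDPS. Of the 32 genes tested, 9 rose, 16 fell and 7 did not pass the test (edgeR's quasi-likelihood test, Benjamini-Hochberg adjusted p below 0.05 over 11846 genes). The treatment moved much of the transcriptome: 37.6% of all tested genes rose and 33.7% fell. The share that fell was larger among the listed genes, and their median log2 fold change was -0.57, against 0.08 for all genes tested. At 2-fold or more, 7 of the 32 fell (SCD, FASN, ABCA1, NSDHL, SQLE, SREBF1 and PMVK), where 11.8% of all genes did. In the other direction 5 of the 32 rose by 2-fold or more, where 22.7% of all genes did. Groups did not overlap for 24 of the 32 genes, close to the 74.7% of all genes.

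**Figure D1:**
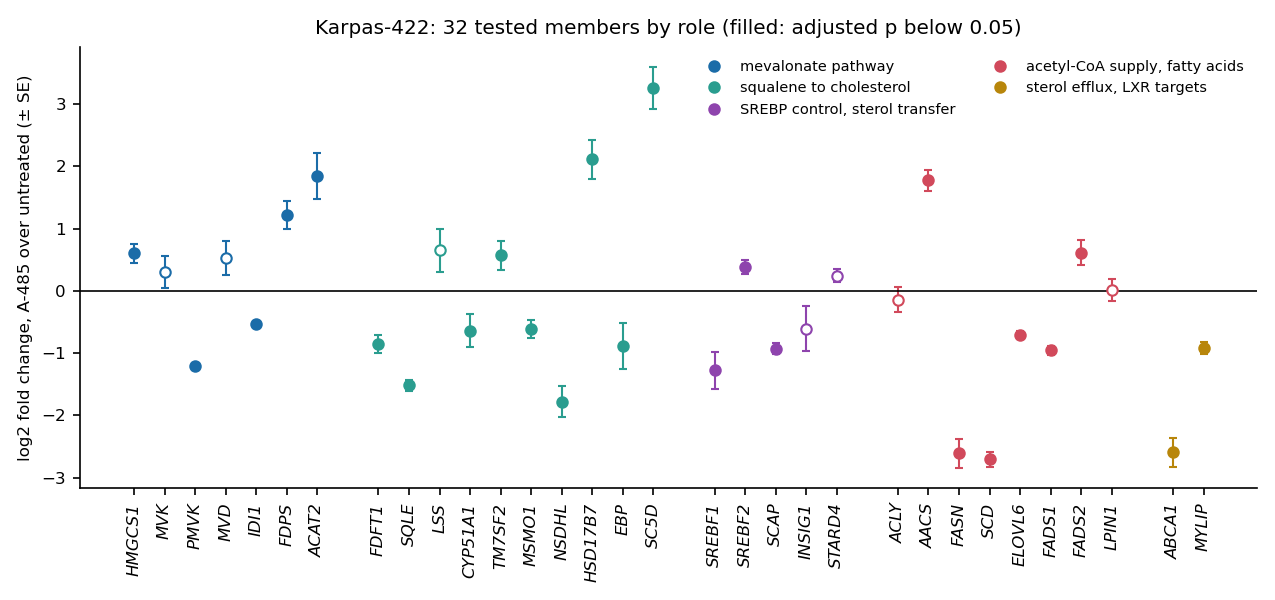
Log2 fold change (A-485 over untreated, with its SE) of the 32 tested genes in Karpas-422, grouped by role. Filled points had an adjusted p below 0.05. SCD, FASN and ABCA1 lie lowest, between -2.71 and -2.59, and SC5D highest at 3.26.

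Level and direction went together across the transcriptome, so the list was also split by level. Of all 4984 genes that reached 20 CPM in the higher group, 54.2% fell and 29.4% rose. Among the 14 listed genes of that level, 11 fell (SCD, FASN, IDI1, FADS1, PMVK, SQLE, ELOVL6, SCAP, MYLIP, MSMO1 and FDFT1), 2 rose (FDPS and SREBF2) and STARD4 did not pass. The median log2 fold change was -0.88 for those 14 and -0.27 for all genes of that level. Among the 18 listed genes below 20 CPM in both groups, 7 rose and 5 fell, with a median of 0.42. All genes of that level also rose more often than they fell. Of all 4459 rises 1466, and of all 3998 falls 2701, were of genes that reached 20 CPM.

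**Figure D2:**
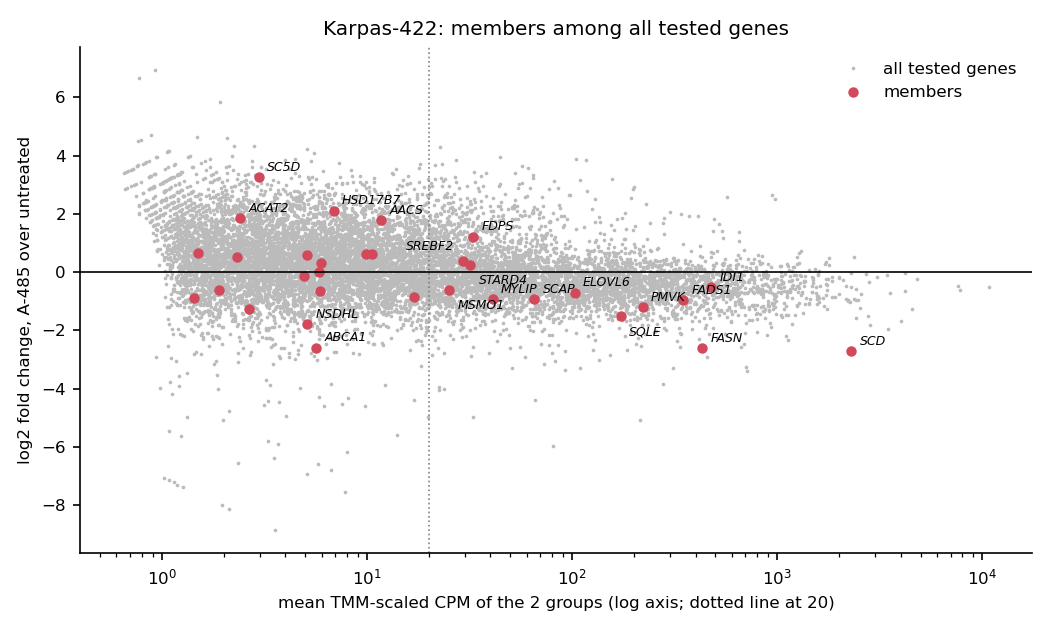
Log2 fold change against mean TMM-scaled CPM (log axis) for all 11846 genes tested in Karpas-422 (grey) and the 32 listed genes (red). To the right of the dotted line at 20 CPM the listed genes lie mostly below 0, with SCD and FASN under the main cloud.

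Among the genes of acetyl-CoA supply and fatty acid synthesis, 4 of the 8 tested fell and 2 rose. SCD (ENSG00000099194), the desaturase that makes oleic from stearic acid, was at 3217, 4455 and 4258 TMM-scaled CPM when untreated and at 595, 611 and 623 CPM with A-485. Every treated library lay below every untreated one, and the spread was narrower with treatment. The level was 6.52-fold lower with A-485 (log2 fold change -2.71 ± 0.11 SE, adjusted p = 4.79e-08). FASN (ENSG00000169710), the synthase that builds palmitate, was at 590, 645 and 983 CPM untreated and at 136, 110 and 118 CPM with A-485. It was 6.11-fold lower (-2.61 ± 0.23 SE, adjusted p = 0.000181), again without overlap, and the untreated replicate 3 stood above its 2 partners. As these are shares of the RNA of a culture, fewer cells with a transcript and less of it per cell cannot be told apart.

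The other desaturase and elongase genes of the list moved less than FASN and SCD. ELOVL6, which lengthens palmitate to stearate, was at 125, 136 and 123 CPM untreated and at 78.0, 77.5 and 79.6 CPM with A-485 (log2 fold change -0.71 ± 0.06 SE, adjusted p = 1.88e-07). FADS1, the delta-5 desaturase of polyunsaturated fatty acids, was at 396, 504 and 475 CPM untreated and at 229, 239 and 240 CPM with A-485 (-0.95 ± 0.08 SE, adjusted p = 1.49e-07). Neither gene's groups overlapped. FADS2, the delta-6 desaturase, lies next to FADS1 with overlapping exons on the other strand, and it rose, from 7.14, 8.35 and 7.78 CPM to 15.6, 10.2 and 10.0 CPM (0.62 ± 0.19 SE, adjusted p = 0.0114). The rise of FADS2 was carried by A-485 replicate 1, and without that library it was 0.38 with an adjusted p of 0.063. Because strand is not stated, reads of FADS1, FADS2 and FEN1, which also overlaps FADS2, cannot be told apart where they share exons.

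AACS (ENSG00000081760), which turns acetoacetate into acetoacetyl-CoA for lipid synthesis, rose from 6.34, 5.47 and 3.89 CPM to 17.5, 19.4 and 17.8 CPM. All treated libraries lay above all untreated ones, 3.43-fold on average (log2 fold change 1.78 ± 0.17 SE, adjusted p = 3.83e-07). ACLY, the citrate lyase that supplies cytosolic acetyl-CoA, did not pass the test at -0.14 ± 0.20 (SE), nor did LPIN1, a phosphatidate phosphatase of triglyceride synthesis, at 0.02 ± 0.18 (SE). ACSS2, the acetate-activating synthetase, had too few reads to test: 1, 2 and 1 counts with A-485 and 0 in each untreated library, which allows up to 3 counts each.

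In the mevalonate pathway, 3 of the 7 genes rose, 2 fell and 2 did not pass. PMVK, phosphomevalonate kinase, was at 309, 302 and 316 CPM untreated and at 136, 137 and 126 CPM with A-485, a 2.32-fold lower level with little spread in either group (log2 fold change -1.21 ± 0.05 SE, adjusted p = 1.31e-10). IDI1, the isomerase that makes dimethylallyl diphosphate, was at 566, 572 and 551 CPM untreated and at 372, 394 and 407 CPM with A-485 (-0.53 ± 0.05 SE, adjusted p = 4.75e-07). Both genes' groups were apart.

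FDPS, which makes farnesyl diphosphate, was at 29.1, 15.6 and 14.0 CPM untreated and at 46.4, 48.3 and 44.6 CPM with A-485. It rose by 1.22 ± 0.23 (SE) on the log2 scale (adjusted p = 0.00135), with the untreated replicate 1 nearest to the treated libraries. ACAT2, the cytosolic thiolase that opens the pathway, rose 3.59-fold, from 1.75, 0.911 and 0.338 CPM to 3.12, 4.42 and 3.85 CPM (1.85 ± 0.36 SE, adjusted p = 0.000436), on 13, 6 and 2 untreated counts. Leaving out 1 library moved the rise of ACAT2 between 1.47 (without untreated replicate 3) and 2.55 (without untreated replicate 1) on the log2 scale. HMGCS1, the synthase of HMG-CoA, was at 7.41, 8.35 and 9.48 CPM untreated and at 11.4, 13.6 and 13.2 CPM with A-485 (0.61 ± 0.15 SE, adjusted p = 0.00282). The groups of FDPS, ACAT2 and HMGCS1 did not overlap. On the other strand, exons of ACAT2 share bases with TCP1, those of FDPS with RUSC1-AS1 and those of HMGCS1 with ENSG00000261604. As strand is not stated, reads cannot be told apart there. The mevalonate kinase gene MVK (0.31 ± 0.26 SE) and the decarboxylase gene MVD (0.53 ± 0.27 SE) did not pass. MVK passed without untreated replicate 1 (0.74, adjusted p = 0.00691), and both passed with scaling by library sizes alone (adjusted p = 0.0335 and 0.00729).

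**Figure D3:**
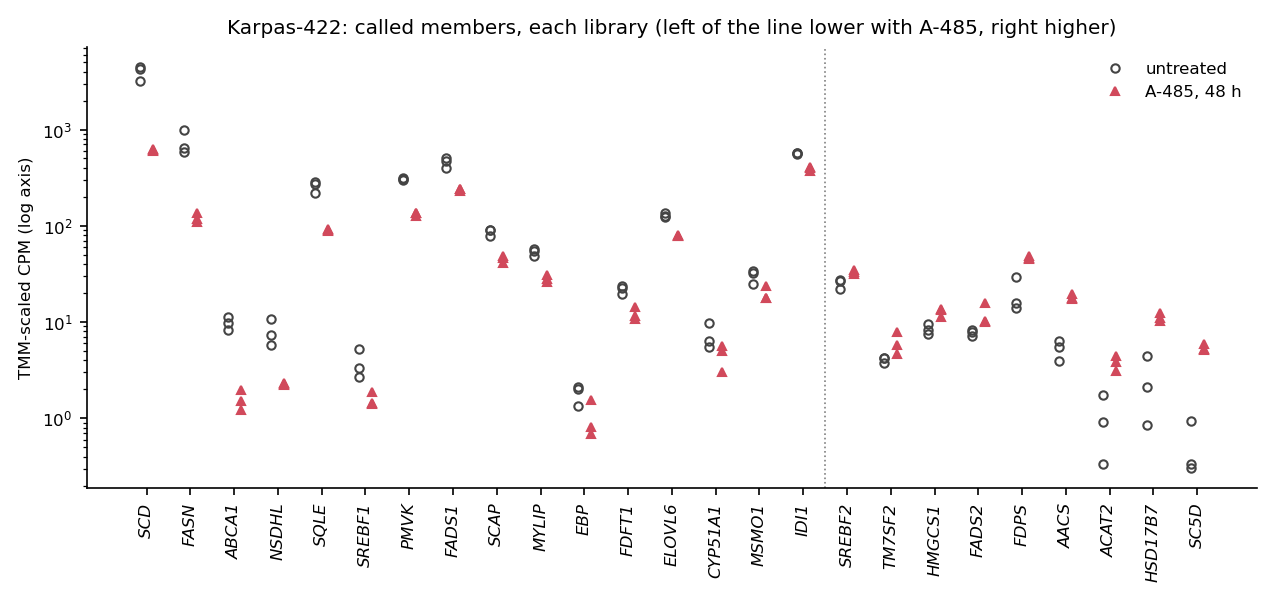
TMM-scaled CPM (log axis) of the 25 listed genes with an adjusted p below 0.05 in Karpas-422, 1 point per library, untreated (open circles) and with A-485 for 48 h (triangles). Genes left of the dotted line fell and those right of it rose. SCD drops from 3217 to 4455 CPM to 595 to 623 CPM, and the 9 genes that rose reached at most 48.3 CPM, the value of FDPS in 1 treated library.

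Between squalene and cholesterol, 6 of the 10 tested genes fell and 3 rose. SQLE, which oxidises squalene and is a control point of the pathway, was at 216, 282 and 271 CPM untreated and at 90.0, 87.4 and 91.6 CPM with A-485. The groups were apart, and the level was 2.86-fold lower with A-485 (log2 fold change -1.51 ± 0.09 SE, adjusted p = 1.61e-08). NSDHL, one of the enzymes that strip methyl groups from sterols, fell by 1.78 ± 0.25 (SE), and FDFT1, the squalene synthase, fell by 0.85 ± 0.14 (SE). MSMO1 (-0.61 ± 0.15 SE), CYP51A1 (-0.64 ± 0.26 SE) and EBP (-0.88 ± 0.37 SE) fell too, and with scaling by library sizes alone none of the 3 was called (-0.20, -0.24 and -0.48). The call of CYP51A1 was also lost without A-485 replicate 1 or 2 or untreated replicate 3, and that of EBP held in 4 of the 12 alternatives.

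SC5D, the lathosterol desaturase, rose from 0.944, 0.304 and 0.338 CPM to 5.23, 5.11 and 5.88 CPM, 9.57-fold (log2 fold change 3.26 ± 0.34 SE, adjusted p = 1.05e-06). The untreated values rest on 7, 2 and 2 counts, so the size of that rise is imprecise, although the groups were apart. Leaving out 1 library gave 2.97 to 4.02, the highest value without untreated replicate 1. HSD17B7, the 3-ketosteroid reductase, rose from 4.45, 2.13 and 0.846 CPM to 11.1, 10.3 and 12.4 CPM (2.11 ± 0.31 SE, adjusted p = 8.02e-05). Its rise was 2.88 without untreated replicate 1 and 1.74 without untreated replicate 3. HSD17B7 and FDPS have closely related pseudogenes, and no source used here says how reads shared with them were counted. TM7SF2, a sterol reductase, rose by 0.57 ± 0.23 (SE; adjusted p = 0.0378), a call that was lost under 7 of the 12 alternatives. It shares exonic bases with VPS51 on the same strand. LSS, which closes the sterol ring, did not pass (0.65 ± 0.35 SE), except with scaling by library sizes alone (adjusted p = 0.0135). DHCR7 was not tested, at 7, 5 and 3 counts with A-485 and 9, 11 and 16 counts untreated.

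The 2 SREBP genes moved in opposite directions. SREBF1 was at 5.26, 3.34 and 2.71 CPM untreated and at 1.45, 1.87 and 1.42 CPM with A-485, without overlap (log2 fold change -1.27 ± 0.30 SE, adjusted p = 0.00158). SREBF2 was at 26.7, 22.0 and 27.4 CPM untreated and at 33.4, 31.3 and 34.8 CPM with A-485 (0.39 ± 0.11 SE, adjusted p = 0.00555), also without overlap. An antisense gene, SREBF2-AS1, shares exonic bases with SREBF2 on the other strand, and RAI1 does so with SREBF1, so their reads cannot be told apart there.

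SCAP, the sterol sensor that escorts both SREBP proteins, was at 77.8, 89.4 and 90.5 CPM untreated and at 45.7, 48.8 and 40.8 CPM with A-485 (log2 fold change -0.93 ± 0.09 SE, adjusted p = 3.99e-07). Its groups were apart. INSIG1, the retention factor, was at 2.43, 1.06 and 3.38 CPM untreated and at 1.67, 1.57 and 1.22 CPM with A-485, with overlapping groups and an adjusted p of 0.15. Without untreated replicate 2 INSIG1 passed, at -0.95 with an adjusted p of 0.0204. STARD4, which moves cholesterol between membranes, was 0.25 ± 0.11 (SE) with an adjusted p of 0.0567, and scaling by library sizes alone or leaving out A-485 replicate 1 or untreated replicate 1 moved it past the threshold.

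Both tested genes of the efflux and LXR target group fell. ABCA1, which exports cholesterol to apolipoproteins, was at 8.22, 9.72 and 11.2 CPM untreated and at 1.22, 1.97 and 1.52 CPM with A-485, 6.03-fold lower and without overlap (log2 fold change -2.59 ± 0.23 SE, adjusted p = 1.84e-07). MYLIP, a ubiquitin ligase that degrades lipoprotein receptors, fell by 0.92 ± 0.10 (SE; adjusted p = 1.53e-06). ABCG1, another exporter, had 0 counts in all 6 Karpas-422 libraries, each of which allows up to 3 counts.

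Under 12 alternative settings the calls held in all of them for 13 of the 16 genes that fell and 7 of the 9 that rose. Scaling by library sizes alone moved the median over all genes from 0.08 to 0.49, 73.8% of all calls were higher in place of 52.7%, and the listed genes split into 13 that rose and 13 that fell. Reads aligned uniquely outside genes were 17.1% to 18.4% of the uniquely aligned reads with A-485 and 8.62% to 10.6% untreated. The fold change of all genes also moved with the number of annotated transcripts, with a median of -0.04 at 1 to 2 transcripts, -0.19 at 3 to 6, 0.14 at 7 to 12 and 0.55 above 12. The listed genes counted 0 rises and 3 falls at 1 to 2 transcripts, 1 and 7 at 3 to 6, 5 and 1 at 7 to 12, and 3 and 5 above 12. T and NK markers summed to 549 to 588 CPM with A-485 and to 637 to 682 CPM untreated, with all of the 6 but CD2 detected. Most of that sum was CD3G (489 to 525 CPM against 569 to 617), and CD247 went the other way, at 20.9 to 25.7 CPM with A-485 and 3.33 to 7.94 untreated. Myeloid markers summed to 43.5 to 48.9 CPM against 32.2 to 39.9, with ITGAM at 0, and the 7 B cell markers to 2820 to 3214 CPM against 2361 to 2660. Of 6 epithelial and fibroblast markers only DCN was above 0, and the sum was 177 to 193 CPM with A-485 and 381 to 428 CPM untreated. The part of these features in the members' changes was not tested.

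Genes that branch off or neighbour these pathways were counted from lists for comparison, beside the 37.6% of all tested genes that rose and the 33.7% that fell. Of 12 genes that use isoprenoids, 6 fell and 3 rose, among them ICMT, which methylates prenylated proteins (-1.06 ± 0.05 SE), and NUS1, a subunit of the dolichol-making transferase (-0.98 ± 0.05 SE). Of 14 other genes of fatty acid synthesis and elongation, 6 fell and 2 rose, including SCD5, the second stearoyl desaturase (-0.98 ± 0.07 SE), MCAT of mitochondrial fatty acid synthesis (-1.44 ± 0.12 SE) and HACD3 of the elongation cycle (-0.68 ± 0.05 SE). Of 14 genes of sterol sensing and transport, 5 fell and 3 rose. Those that fell included OSBP, an oxysterol-binding protein (-0.55 ± 0.06 SE), and RNF139, a ubiquitin ligase of the endoplasmic reticulum (-0.45 ± 0.06 SE).

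Of 6 glycerolipid synthesis genes, 3 fell and 2 rose, with AGPAT5, an acyltransferase, at -1.11 ± 0.05 (SE). Of 14 fatty acid oxidation genes, 6 rose and 4 fell, where 37.6% of all tested genes rose and 33.7% fell. HADHB, a subunit of the mitochondrial trifunctional protein, rose by 2.05 ± 0.16 (SE), ACADVL, the very long chain acyl-CoA dehydrogenase, by 1.96 ± 0.16 (SE), and ECHS1, the short-chain hydratase, fell by 0.58 ± 0.05 (SE). Of 5 LXR and efflux genes, 3 rose and 1 fell, with the receptor partner RXRB at 2.23 ± 0.23 (SE) and the phospholipid acyltransferase LPCAT3 at -0.79 ± 0.11 (SE).

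In the clones labelled BCL11A knockout, no listed gene passed the test against untreated WSU-DLCL2. BCL11A itself was at 58.8, 69.6 and 51.9 CPM of library totals in clones 1 to 3 (1745, 2431 and 1739 counts), against 46.8, 45.7 and 73.5 CPM for untreated replicates 1 to 3 (1592, 1704 and 1561 counts). The untreated replicate 3 lay above every clone and replicates 1 and 2 below every clone, so the groups overlapped and BCL11A does not check the label. With all 3 untreated libraries, 0 of the 34 tested genes and 0% of all 16152 genes were called by edgeR's quasi-likelihood test, and limma-voom called none of the 34 either. At an unadjusted p below 0.05 there were 1 higher and 7 lower among the 34. Of all 16152 genes 6.92% passed in either direction, 358 higher and 759 lower. DESeq2 called AACS higher and FADS1 lower. Groups did not overlap for 13 of the 34 genes, 11 of them lower in the clones, against 16.5% of all genes, 1374 lower and 1286 higher.

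The untreated group holds 1 library that stood apart. Replicate 3 has the title of the untreated line and a treatment entry of A-485, and its counts differed from those of replicates 1 and 2 by a chi-square of 201 and 212 per gene, where replicates 1 and 2 differed by 2.66. Of the 34 listed genes, 19 were higher in it than in all 5 other libraries of the comparison and 8 were lower, where 36.6% of all genes were higher and 35.6% lower. At least 1.5-fold above the mean of replicates 1 and 2 were 7 genes, where 23.9% of all genes were: NSDHL (2.45-fold), MSMO1 (2.30-fold), TM7SF2 (2.18-fold), SQLE (2.18-fold), MYLIP (1.78-fold), ABCG1 (1.77-fold) and HMGCS1 (1.54-fold). At least 1.5-fold below were 6, where 26.1% of all genes were, namely FDPS, EBP, FADS2, ACLY, PMVK and ELOVL6. Replicates 1 and 2 differed from each other by ratios of only 0.801 to 1.06 over the same genes.

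**Figure D4:**
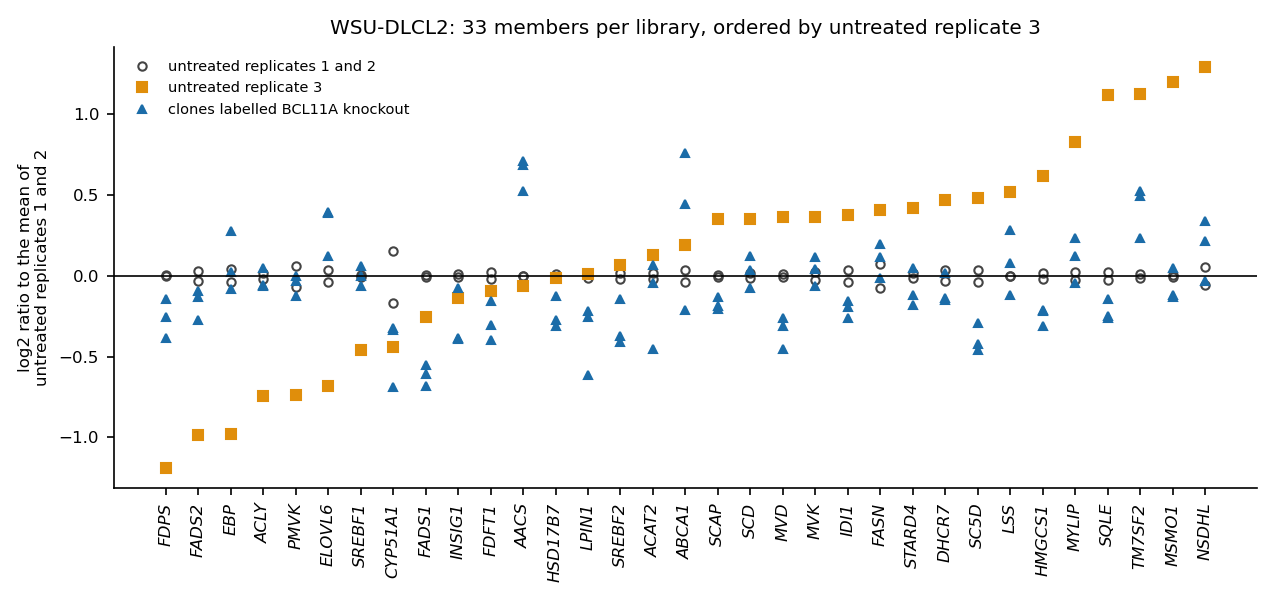
Log2 ratio of each WSU-DLCL2 library to the mean of untreated replicates 1 and 2 for 33 listed genes (ABCG1, at 2.08 CPM or less, is left out), ordered by untreated replicate 3 (squares). Replicate 3 ranges further than the clones (triangles) and than replicates 1 and 2 (circles) for most genes, while AACS is higher and FADS1 lower in all 3 clones than in all 3 untreated libraries.

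AACS and FADS1 had the smallest p-values with and without replicate 3. AACS was at 104, 118 and 116 CPM in clones 1 to 3 against 72.1, 71.9 and 68.9 CPM untreated, so that all clones lay above all 3 untreated libraries (log2 fold change 0.67 ± 0.11 SE, adjusted p = 0.193). Without replicate 3 the difference was 0.65 ± 0.08 (SE) with an adjusted p of 0.0212. FADS1 was at 73.4, 80.4 and 77.5 CPM in clones 1 to 3 against 118, 118 and 98.9 CPM untreated, all clones below all untreated libraries (-0.53 ± 0.12 SE, adjusted p = 0.342). Without replicate 3 it was -0.61 ± 0.07 (SE) with an adjusted p of 0.018.

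These 2 were the only calls among the 34 genes in that comparison of 3 clones with 2 untreated libraries, in which 351 genes, or 2.11% of the 16607 tested, were called. At an unadjusted p below 0.05, 11 of the 34 were lower and 3 higher, where 10.2% of all genes were lower and 8.76% higher. Groups did not overlap for 18 of the 34, 15 of them lower in the clones, against 40.3% of all genes, 3377 lower and 3311 higher. Both calls were lost without clone 3 (adjusted p of 0.0759 for AACS and 0.0621 for FADS1) and without either remaining untreated replicate (0.252 to 0.338). With the replicate number as a block they were lost too (0.0988 for AACS and 0.0965 for FADS1). Without clone 2 the count of all genes called was 3020, and 2 listed genes were called higher and 9 lower.

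The other genes with small p-values in the clones belonged to several steps. SC5D was at 81.5, 74.5 and 72.4 CPM in clones 1 to 3 against 97.1, 102 and 139 CPM untreated, and MVD at 52.6, 60.1 and 58.1 CPM against 72.6, 71.6 and 92.7 CPM. SREBF2 was at 316, 381 and 324 CPM against 425, 415 and 440 CPM. The clones lay below every untreated library for all 3 of these genes, with adjusted p-values of 0.512, 0.541 and 0.637. HMGCS1, at 388, 361 and 386 CPM against 443, 455 and 689 CPM, IDI1, at 197, 206 and 212 CPM against 230, 241 and 305 CPM, and LPIN1, at 198, 260 and 253 CPM against 305, 299 and 305 CPM, were also lower in every clone, with adjusted p-values of 0.678 to 0.712.

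Replicate 3 set the size of the difference for several of them. Without it, HMGCS1 changed from -0.48 ± 0.19 (SE) to -0.24 ± 0.07 (SE) and SQLE, at 277, 280 and 301 CPM in the clones and 327, 338 and 723 CPM untreated, from -0.69 ± 0.32 (SE) to -0.22 ± 0.07 (SE). TM7SF2, at 38.6, 47.1 and 46.2 CPM in the clones and 32.5, 33.0 and 71.4 CPM untreated, changed sign, from -0.05 ± 0.33 (SE) to 0.43 ± 0.11 (SE; adjusted p = 0.127). FDFT1, at 611, 721 and 651 CPM against 793, 816 and 754 CPM, stayed near the same value (-0.25 ± 0.11 SE and -0.28 ± 0.09 SE).

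The SREBP regulators gave no call. SREBF1 was at 73.6, 80.3 and 77.0 CPM in clones 1 to 3 against 77.3, 76.5 and 56.0 CPM untreated, with overlapping groups. SCAP was at 46.0, 45.6 and 47.9 CPM against 52.6, 52.3 and 66.8 CPM, lower in all clones with an adjusted p of 0.763. INSIG1 was at 198, 245 and 198 CPM against 257, 260 and 236 CPM, and clone 2 overlapped the untreated group.

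AACS was thus called higher and FADS1 lower with A-485 in Karpas-422 and, without replicate 3, in the clones. The 2 comparisons share no library. In Karpas-422, however, most tested genes were called, with 37.6% higher and 33.7% lower. In the clones each of the 2 calls held in 7 of 11 alternatives. The differences were smaller in the clones, 0.65 and -0.61 against 1.78 and -0.95 on the log2 scale, and the sizes were not tested against each other because the libraries were of different kinds. SCD and FASN, which fell furthest in Karpas-422, were at 0.03 ± 0.08 (SE) and 0.11 ± 0.09 (SE) in the clones without replicate 3.

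None of the tested genes of the isoprenoid, sterol sensing, fatty acid synthesis, glycerolipid and fatty acid oxidation lists was called in either form of this comparison by edgeR's test. At an unadjusted p below 0.05 without replicate 3, beside the 8.76% higher and 10.2% lower of all genes, 4 isoprenoid genes of 13 were higher and 0 lower, and 0 sterol sensing genes of 16 were higher and 4 lower. Of 15 fatty acid synthesis genes 0 were higher and 3 lower, of 10 glycerolipid genes 1 and 2, and of 15 fatty acid oxidation genes 1 and 2.

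WSU-DLCL2 with A-485 has no untreated library of its own kind, so within that line the treatment cannot be told apart from the kind of library, and its values are set only beside the shallow Karpas-422 libraries, with no test. In CPM of library totals, 12 of the 32 genes were above Karpas-422 with A-485 without overlap, 10 were below and 10 overlapped, where 27.7% of all genes were above and 46.2% below. The line differs here as well as any response to A-485. The libraries differed too: unaligned reads were 14.1% to 14.6% of all counted in WSU-DLCL2 with A-485 and 2.51% to 2.86% in Karpas-422, and uniquely aligned reads outside genes were 26.0% to 27.8% against 8.62% to 18.4%. The part of these shares in the differences was not tested. LPIN1 was at 137, 131 and 136 CPM in WSU-DLCL2 with A-485, 19.9-fold above the 7.32, 7.08 and 5.94 CPM of Karpas-422 with A-485. ABCA1 was at 93.9, 90.0 and 88.1 CPM against 1.41, 2.25 and 1.75 CPM, which is 50.3-fold. These 2 were far outside the range of all Karpas-422 libraries.

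The other genes differed less than LPIN1 and ABCA1. SCD was at 1869, 1817 and 1839 CPM in WSU-DLCL2 with A-485, between the 686 to 715 CPM of treated and the 2915 to 3756 CPM of untreated Karpas-422. FASN was at 139, 371 and 226 CPM, with a wide spread that overlapped treated Karpas-422 at 125 to 156 CPM. SQLE was at 225, 252 and 225 CPM, above treated Karpas-422 at 99.9 to 105 CPM. AACS, at 17.5, 19.8 and 22.5 CPM, overlapped treated Karpas-422 at 20.1 to 22.1 CPM, and HMGCS1, FDPS, SREBF2 and SCAP were below it.

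**Figure D5:**
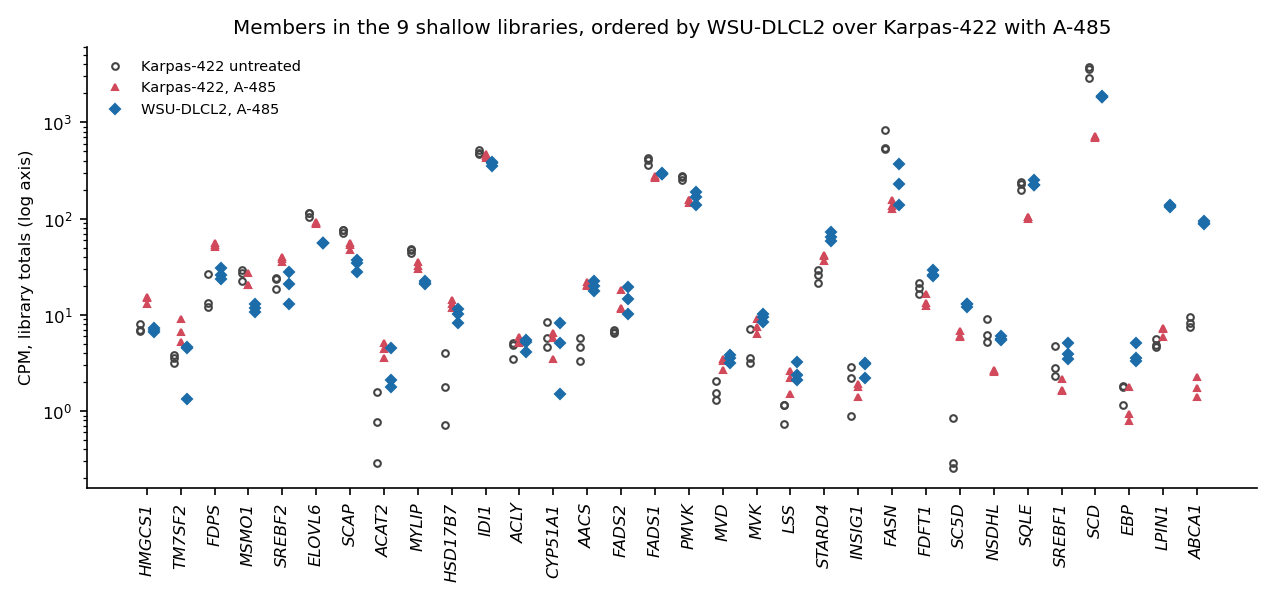
CPM of library totals (log axis) of 32 listed genes in the 9 shallow libraries, ordered by the ratio of WSU-DLCL2 with A-485 (diamonds) to Karpas-422 with A-485 (triangles), with untreated Karpas-422 as open circles. LPIN1 and ABCA1 at the right end stand apart in WSU-DLCL2, at 131 to 137 CPM and 88.1 to 93.9 CPM.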

How the data were processed

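Total RNA came from Karpas-422 and WSU-DLCL2, and the authors deposited whole-number read counts per Ensembl gene for 15 libraries, not normalized. Per the submitters' processing notes, STAR 2.5.3a, RSEM and GRCh37 (hg19) were used. The names of the deposited files give HTSeq as the counter, with no version, and no source used here gives the annotation or strand setting. The 5 summary lines of each file (60.9% to 70.2% of reads in shallow libraries, 27.3% to 29.7% in deep ones) were left out of totals and fits. Depth was 6689320 to 8897051 and 21233752 to 37286727 gene counts. PCR copies are not marked, so a count of 0 and its limit of 3 counts cover counting error only. The 17 sample records hold 3 runs of untreated WSU-DLCL2 replicate 3 that share 1 file, used as 1 library and grouped by title.

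Identifiers were turned into symbols with a table of gene names and with GENCODE 29 (GRCh38), which served for names, transcript numbers and exon overlap alone. For 15 of the 35 genes an exon overlaps another gene's. Promoters are RefSeq's on GRCh38.p14.

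Each comparison was fitted on its own groups with R 4.3.3 and edgeR 4.0.16 (filterByExpr, TMM scaling, robust quasi-likelihood fits, two-sided tests, Benjamini-Hochberg adjustment over all genes kept, threshold 0.05). The standard error of a log2 fold change is its size divided by the square root of F. CPM are TMM-scaled within a comparison unless given as of library totals. Alternatives were DESeq2 1.42.0 and its size factors, limma-voom (limma 3.58.1), library sizes alone, no low-count filter, a replicate block and leaving out each library. The fit was tested on simulated data.

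The genes and lists were chosen with earlier results of these data known. All listed genes may be named. Values per library are given, per comparison, for up to 8 called higher and 8 called lower with the smallest p (the 8 smallest p where fewer than 4 were called), and for SREBF1, SREBF2, SCAP and INSIG1. Of each other list up to 3 genes with the smallest p are named, and some of these are not reported here. The values of FASN per library, and the genes of the WSU-DLCL2 A-485 libraries, were chosen after their values were seen.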

Additional observations from a re-analysis of the deposited data

How the results depend on the processing

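Of the values recomputed in Karpas-422, 562 kept their direction and side of the threshold, 24 lost a call, 8 gained one and 6 reversed. In the clones these were 400, 0, 4 and 16 with all untreated libraries, and 332, 8, 17 and 17 without untreated replicate 3. The cause of each change was not tested. In Karpas-422, LPIN1 turned to -0.0307 with DESeq2's size factors and -0.0285 with DESeq2, and to between -0.0359 and 0.11 leaving out 1 library, and ACLY turned to 0.26 with library sizes alone. The replicate numbers did not pair the libraries: same-numbered deviations correlated at 0.02, 0.08 and -0.05 in Karpas-422 and at 0.09, 0.05 and 0.25 in WSU-DLCL2. A replicate block left 8250 genes called in Karpas-422, with 9 listed genes higher and 15 lower. In the clones against all 3 untreated libraries, 20 genes were called with no filter, 315 with DESeq2, 2 with limma-voom and 0 to 351 leaving out 1 library, with 1 listed gene higher and 1 lower by DESeq2 and 0 to 1 each leaving out 1 library. TM7SF2 turned to 0.0893 with limma-voom and 0.046 with the replicate block. Leaving out 1 library spanned 0 in this comparison for TM7SF2 (-0.24 to 0.43), FDPS (-0.26 to 0.22), FASN (-0.14 to 0.11), MVK (-0.16 to 0.0372), PMVK (-0.0481 to 0.32), LSS (-0.20 to 0.10), NSDHL (-0.61 to 0.18), ACLY (-0.0196 to 0.32), SCD (-0.16 to 0.0326), FADS2 (-0.16 to 0.27) and MYLIP (-0.37 to 0.11), and leaving out untreated replicate 3 reversed each of these 11.

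Without untreated replicate 3, 835 genes were called with no filter, 1153 with DESeq2, 89 with the replicate block and 1 to 3020 leaving out 1 library. The listed genes called lower were then 2 with no filter, 5 with DESeq2 (and 2 higher), 0 with the replicate block (and 0 higher, AACS at an adjusted p of 0.0988 and FADS1 at 0.0965) and 0 to 9 leaving out 1 library (0 to 2 higher). SREBF1 turned to -0.0039 with DESeq2's size factors and -0.0036 with DESeq2. With the replicate block MVK turned to -0.0085, LSS to -0.0161, EBP to -0.0273 and SCD to -0.0174. Leaving out 1 library spanned 0 for ACAT2 (-0.24 to 0.0146), SREBF1 (-0.0285 to 0.0354), MVK (-0.0166 to 0.0833), LSS (-0.0214 to 0.19), EBP (-0.0361 to 0.16), SCD (-0.0251 to 0.082) and PMVK (-0.13 to 0.0172). Leaving out an untreated replicate there left 1 library, assumed to vary like the clones. Few reads in the shallow libraries limit genes such as EBP, SC5D and ACAT2. In CPM, too, these genes were lower in every shallow library than in any deep one, and the part of depth was not tested.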
